A study of Mus musculus with 12 samples.

Results

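Growth factor receptor tyrosine kinases were followed as 10 genes, Egfr, Erbb2, Erbb3, Met, Igf1r, Insr, Pdgfra, Pdgfrb, Fgfr1 and Fgfr2, chosen by gene symbol out of 55202 named genes in the count table. All 10 were in that table and in the authors' own comparison table of 37140 named genes. The 12 RNA-Seq libraries were labelled as macrophages sorted from tumors (TAMs) of Rag1-/- mice, which lack T and B cells, with 6 libraries of DMBA3-4 TAMs (DMBA exposure) and 6 of DMSO3-1 TAMs (DMSO exposure). DMBA is a polycyclic aromatic hydrocarbon carcinogen, and DMSO was its vehicle. The tumors were grown from DMBA3-4 and DMSO3-1, each a cell clone from a mouse PyMt mammary tumor line, treated with DMBA or with DMSO, so that treatment and clone cannot be told apart. The host genotype was shared by both groups, and the labels give no age. The labels do not say whether the libraries of a group came from different mice. The p-values therefore cover the spread between libraries alone, part or all of which may be technical.

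These receptors sit in the cell membrane and work in pairs. As a rule they bind a growth factor outside the cell and phosphorylate tyrosines inside it. Adaptor proteins dock on the phosphorylated tyrosines and pass the signal to the RAS-MAPK, PI3K-AKT and STAT pathways. EGFR, HER2 (Erbb2), MET and FGFR2 are typical of epithelial and tumor cells, PDGFRα and PDGFRβ of fibroblasts and pericytes, while tumor macrophages are known more as a source of ligands for them.

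Transcripts of the sorted cell type were nearly absent from the count table. Ptprc, which encodes CD45, had 0 to 7 counts per library in DMBA3-4 and 0 to 2 in DMSO3-1. Adgre1 (F4/80) and Itgam (CD11b) each had 0 to 3 counts in DMBA3-4 libraries and 0 to 2 in DMSO3-1 libraries. Of 20 macrophage markers, 7 had enough counts to test. Their summed share was 0.00816% to 0.0125% of counts in DMBA3-4 and 0.00688% to 0.00973% in DMSO3-1. Total counts ran from 3040452 to 4632817 per library (median 3894211) in DMBA3-4 and from 2752005 to 3978901 (median 3412861) in DMSO3-1. On the first principal component, DMBA3-4 library 5 lay at 33.8, against 52.0 to 75.0 for the other 5 of its group. DMSO3-1 libraries 1 and 6 lay at -45.1 and -45.5, against -72.7 to -67.1 for the other 4. Groups are named by their labels throughout, and the receptors' levels are those of whatever cells these libraries hold. In bulk RNA, fewer cells of a type and less RNA per cell cannot be told apart.

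RefSeq promoter sequences (GRCm38.p6, 250 bases before to 50 after the start) were examined for 6 of the 10 genes. The 6 were Egfr, Erbb2, Fgfr2, Igf1r, Met and Pdgfra, and Pdgfrb was left out by choice. Shown are the sequences of Met and Fgfr2, the receptors whose transcripts changed most in each direction. Capitals mark GC boxes (GGGCGG or its reverse complement CCGCCC) and E-boxes (CACGTG, the same on both strands), and no marked motifs overlap. The Met promoter lies on the plus strand at chr6:17463707-17464006, and the Fgfr2 promoter on the minus strand at chr7:130266759-130267058. By RefSeq the Met gene begins at 17463349, before this window. The Pdgfra gene begins at 75151322, before its window, which begins at 75152001. Both windows thus surround a start inside the gene, and how it was chosen was not given in the sources used here.
Met: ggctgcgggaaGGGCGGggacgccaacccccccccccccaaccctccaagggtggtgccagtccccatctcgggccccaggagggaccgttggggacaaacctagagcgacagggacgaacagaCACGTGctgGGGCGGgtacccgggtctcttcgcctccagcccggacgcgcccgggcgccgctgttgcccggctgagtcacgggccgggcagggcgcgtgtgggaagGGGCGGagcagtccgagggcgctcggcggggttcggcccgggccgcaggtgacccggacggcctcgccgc
Fgfr2: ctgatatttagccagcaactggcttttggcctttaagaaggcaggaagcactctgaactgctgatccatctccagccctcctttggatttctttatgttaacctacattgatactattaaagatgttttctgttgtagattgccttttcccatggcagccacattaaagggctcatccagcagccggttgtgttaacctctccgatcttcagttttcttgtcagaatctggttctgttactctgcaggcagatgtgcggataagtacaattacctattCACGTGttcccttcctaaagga
The Met window held 3 GC boxes, 1 E-box and 34 CpG dinucleotides, and 92.3% of the 32851 promoters in the table had fewer CpG. The Fgfr2 window held no GC box, 1 E-box and 4 CpG, and 31.4% of promoters had fewer. The Igf1r window had 48 CpG and 2 GC boxes, Erbb2 21 CpG and no GC box, Egfr 15 CpG and 1 GC box, and Pdgfra 5 CpG and no GC box. A GC box was present in 35.7% of all promoters and an E-box in 7.15%. The 4 receptors of this set whose transcripts were lower in DMBA3-4 had 15 to 48 CpG. Pdgfra had 5, Fgfr2 had 4, and the median over all promoters was 7. This describes 6 sequences only. Insr, Fgfr1 and Pdgfrb, which were also lower, are not among them, Pdgfrb because its chromosome was left out. Whether CpG content goes with the direction of change was not tested.

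Most of the receptor genes were lower in the libraries labelled DMBA3-4 TAM. Of the 10, 9 had enough counts for edgeR's quasi-likelihood test and 8 changed at a Benjamini-Hochberg adjusted p under 0.05, with 7 lower (Egfr, Erbb2, Met, Igf1r, Insr, Pdgfrb and Fgfr1) and 1 higher (Fgfr2). Pdgfra did not pass, and Erbb3 had too few counts. Across all 11511 tested genes, 60.1% changed, 30.2% lower and 29.9% higher, so that a change as such was common. The median log2 fold change, given throughout as DMBA3-4 over DMSO3-1, was -0.77 over the 9 tested receptors and 0.00 over all tested genes. The groups did not overlap for 4 receptors, Erbb2, Met and Pdgfrb on the lower side and Fgfr2 on the higher side, and for 32.2% of all tested genes. Levels are counts relative to library size, scaled by the trimmed mean of M-values (CPM).

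**Figure D1:**
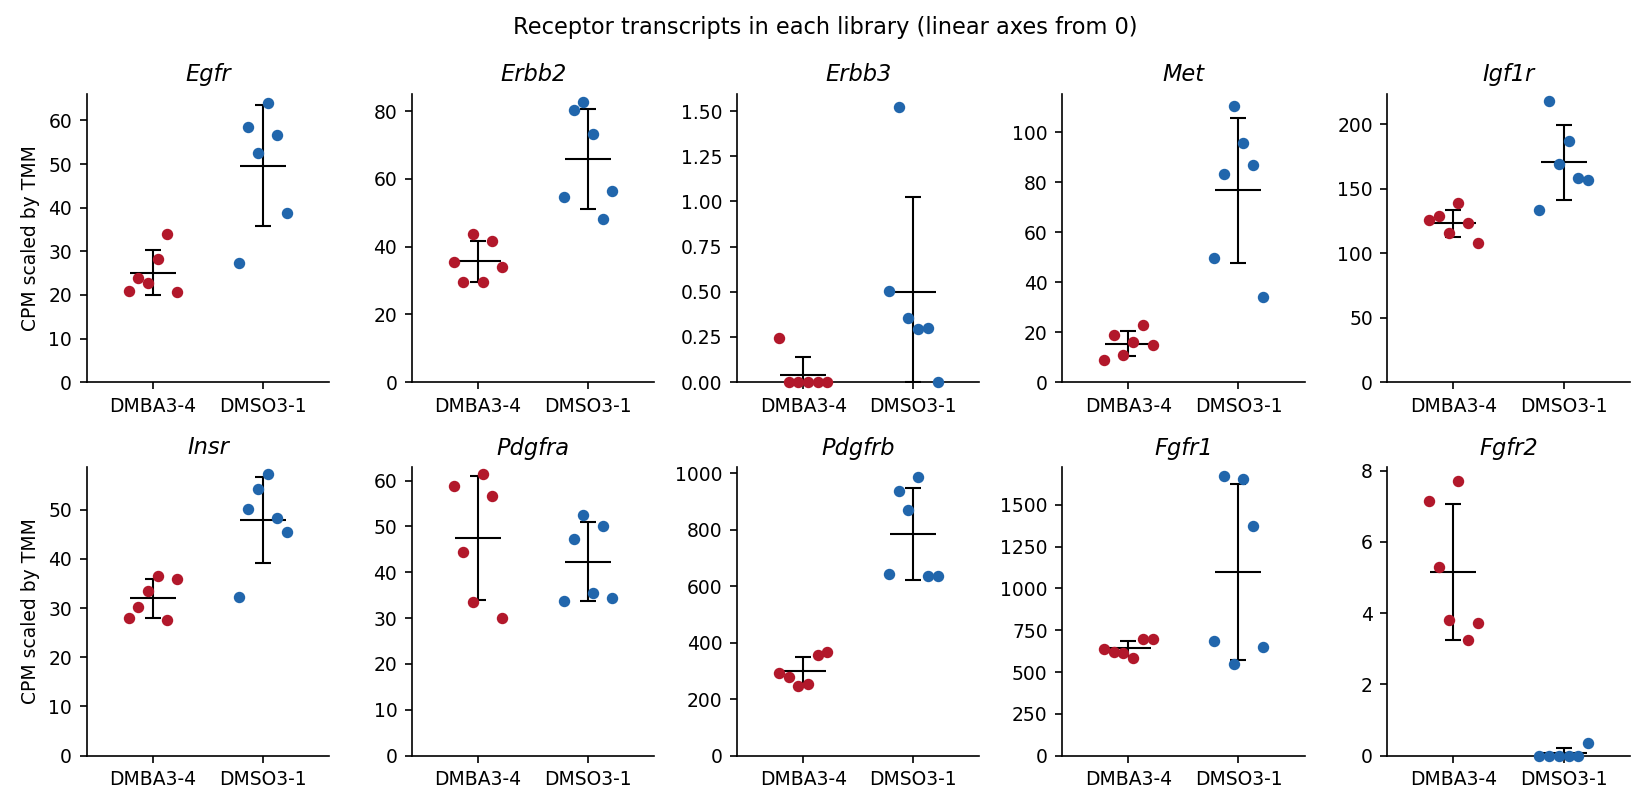
CPM of each receptor gene in every library (points), with the mean and SD of the 6 libraries of each group (black), DMBA3-4 left of DMSO3-1, on linear axes that start at 0. Met, Erbb2 and Pdgfrb are lower in every DMBA3-4 library, Fgfr2 is higher in every one, and the DMSO3-1 libraries of Fgfr1 split into 3 at 1373 CPM or more and 3 within or just below the DMBA3-4 range of 583 to 699 CPM.

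Met showed the largest fall of the 9 receptors tested, Erbb3 being too low to rank. It encodes the receptor for hepatocyte growth factor, which drives growth and scattering of epithelial cells. In DMBA3-4 libraries Met ran from 8.86 CPM to 22.9 CPM with a median of 15.5, against 34.0 to 110 CPM with a median of 85.2 in DMSO3-1 libraries. Every DMBA3-4 library was below every DMSO3-1 library, and the lowest DMSO3-1 values were those of libraries 6 (34.0 CPM) and 1 (49.7 CPM). The mean was 15.4 ± 5.12 CPM in DMBA3-4 and 76.7 ± 29.0 CPM in DMSO3-1 (SD, n = 6 each), with a log2 fold change of -2.32 (edgeR, SE 0.29, adjusted p = 9.67e-06). Without DMSO3-1 libraries 2 to 5 it was -1.51 (edgeR, adjusted p = 8.30e-04). Hgf, the ligand, had 0 to 1 counts per library in DMBA3-4 and 0 to 2 in DMSO3-1. Met lies on the plus strand of chromosome 6 of GRCm38, from 17463800 to 17573980. By the root mean square difference of centered log2 CPM over the 12 libraries, the genes most like Met were Fam126a (0.28), Rap1gap (0.32) and Lrch1 (0.32).

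The EGF receptor genes Egfr and Erbb2 were both lower. EGFR binds EGF-family ligands directly, whereas HER2 has no ligand of its own and signals as a partner of the other ErbB receptors. Egfr ran from 20.8 to 34.0 CPM (median 23.3) in DMBA3-4 libraries and from 27.3 to 64.0 CPM (median 54.5) in DMSO3-1 libraries. The overlap came from DMSO3-1 library 1, at 27.3 CPM, which lay under DMBA3-4 libraries 4 and 5, at 28.2 and 34.0 CPM. For Egfr the log2 fold change was -0.99 (edgeR, SE 0.20, adjusted p = 5.46e-04), with means of 25.1 ± 5.13 CPM in DMBA3-4 and 49.6 ± 13.8 CPM in DMSO3-1 (SD, n = 6 each). Without DMSO3-1 libraries 2 to 5 the value for Egfr was -0.45 (edgeR, adjusted p = 0.123) and did not pass. That fit keeps only libraries 1 and 6 of DMSO3-1. In it 36.9% of all tested genes changed, against 60.1% with all libraries. Lost power and a smaller difference cannot be told apart there.

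Erbb2 ranged from 29.5 to 43.9 CPM (median 34.7) in DMBA3-4 and from 48.1 to 82.5 CPM (median 64.9) in DMSO3-1, with no overlap. Its log2 fold change was -0.88 (edgeR, SE 0.16, adjusted p = 2.33e-04). The gene overlaps Mien1 on the opposite strand, which had 1497 counts over the 12 libraries, and whether the counting used strand was not given in the sources used here.

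Erbb3, the kinase-impaired ErbB receptor that recruits PI3K, was hardly detected. It had 1 count in DMBA3-4 library 1 and 0 in the other 5, against 2, 5, 1, 1, 1 and 0 counts in DMSO3-1 libraries 1 to 6. Permuting log2(CPM + 1) exactly, over 924 splits, gave p = 0.0152, two-sided, and 0.0697 after adjustment over 33387 genes with any count. A difference in Erbb3 was therefore not established at this depth, where 3 counts stand for 0.633 to 1.10 CPM. Egfr lies on chromosome 11 from 16752203 to 16918158, Erbb2 on chromosome 11 from 98412470 to 98437716, and Erbb3 on chromosome 10 from 128567523 to 128589652.

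Igf1r and Insr fell by less. They encode the receptors for insulin-like growth factors and insulin, close relatives that can also form hybrid receptors. Igf1r ran from 108 to 139 CPM (median 124) in DMBA3-4 and from 133 to 218 CPM (median 164) in DMSO3-1. Its log2 fold change was -0.47 (edgeR, SE 0.12, adjusted p = 0.00273). The groups overlapped only through DMSO3-1 library 1, at 133 CPM, and DMBA3-4 library 4, at 139 CPM. Insr ran from 27.5 to 36.6 CPM (median 31.9) in DMBA3-4 and from 32.3 to 57.2 CPM (median 49.3) in DMSO3-1, a log2 fold change of -0.58 (edgeR, SE 0.15, adjusted p = 0.00288). Here too DMSO3-1 library 1 was the one within the DMBA3-4 range. Without DMSO3-1 libraries 2 to 5 neither passed, with -0.29 for Igf1r (edgeR, adjusted p = 0.0874) and -0.33 for Insr (edgeR, adjusted p = 0.176). Igf1r lies on chromosome 7 from 67952827 to 68233668 and Insr on chromosome 8 from 3122061 to 3279617.

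The PDGF receptors differed from each other in these libraries. Pdgfrb, the receptor for PDGF-B that marks pericytes and fibroblasts, ran from 247 to 366 CPM (median 286) in DMBA3-4 and from 636 to 985 CPM (median 756) in DMSO3-1, with a wide gap between the groups. Its means were 299 ± 51.0 CPM in DMBA3-4 and 785 ± 164 CPM in DMSO3-1 (SD, n = 6 each), with a log2 fold change of -1.39 (edgeR, SE 0.15, adjusted p = 1.34e-06). Pdgfra, which binds PDGF-A and PDGF-C and marks fibroblasts, ran from 29.9 to 61.4 CPM (median 50.6) in DMBA3-4 and from 33.8 to 52.5 CPM (median 41.3) in DMSO3-1. The DMSO3-1 range lay wholly inside that of DMBA3-4. The log2 fold change of Pdgfra was 0.16, with a 95% interval of -0.25 to 0.58 (edgeR, adjusted p = 0.477). The difference between the changes of Pdgfra and Pdgfrb was not tested. Pdgfra lies on chromosome 5 from 75152292 to 75198215 and Pdgfrb on chromosome 18 from 61045150 to 61085061.

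Markers of the cell types that carry PDGF receptors were uneven. The 14 fibroblast markers held 0.815% to 1.07% of counts in DMBA3-4 libraries and 1.44% to 1.58% in DMSO3-1 libraries. Fbln2 and Vim carried that difference. Without both the share was 0.153% to 0.247% in DMBA3-4 and 0.217% to 0.268% in DMSO3-1, and the groups overlapped. Of the 12 tested, 2 were higher and 5 lower in DMBA3-4, against the 60.1% of all tested genes that changed. Without DMSO3-1 libraries 1 and 6, 2 were higher and 3 lower (all tested genes: 63.4% changed). Without DMBA3-4 library 5 they were 2 and 7 (all tested genes: 58.7%). Without DMSO3-1 libraries 2 to 5 they were 3 and 4 (all tested genes: 36.9%). Lum, a matrix proteoglycan, and Fap, a protease of activated fibroblasts, were the 2 higher ones, at 80.4 ± 37.0 and 19.5 ± 9.83 CPM in DMBA3-4 and at 16.7 ± 5.20 and 0.806 ± 1.29 CPM in DMSO3-1 (SD, n = 6 each; edgeR, adjusted p = 1.45e-05 and 2.39e-05). Fbln2, a matrix protein, was at 937 ± 402 CPM in DMBA3-4 and 5295 ± 692 CPM in DMSO3-1 (SD, n = 6 each; edgeR, adjusted p = 2.46e-07). These genes were named after their values were seen. The fibroblast marker Thy1 had 0 counts in DMBA3-4 libraries and 0 to 1 in DMSO3-1 libraries. The collagen gene Col1a2 had 0 to 4 counts per library in DMBA3-4 and 0 to 3 in DMSO3-1. Col1a1 was also low, at 14 to 32 and 11 to 44 counts, and did not pass. Others of the list were abundant and did not pass, also named after their values were seen. Col3a1, Col5a1, Dcn and Postn had means of 640, 278, 258 and 253 CPM in DMBA3-4. In DMSO3-1 their means were 583, 261, 354 and 373 CPM. Of 11 pericyte and smooth muscle markers only Mcam had enough counts to test, and Tagln and Cnn1 were at 0 in all libraries. Among 15 epithelial markers, Krt8 and Krt18 were abundant, Epcam was at 0 in all libraries, and the list held 0.152% to 0.215% of counts in DMBA3-4 and 0.102% to 0.176% in DMSO3-1. Nearly all of it was Krt8 and Krt18, the share without them being 0.00196% or less in DMBA3-4 and 0.00262% to 0.00344% in DMSO3-1. Of 4 tested epithelial markers 1 was higher (Krt8) and 2 were lower (all tested genes: 29.9% higher, 30.2% lower). Cdh1 (E-cadherin) had 0 to 3 counts per library in DMBA3-4 and 12 to 24 in DMSO3-1. Cldn3 (a tight junction claudin) had 0 to 55 in DMBA3-4 and 70 to 105 in DMSO3-1. For both genes the only DMBA3-4 counts were those of library 5, and the other libraries of that group were at 0. The part of these cell types in the receptor differences was not tested.

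Fgfr1 and Fgfr2 went opposite ways. Both encode receptors for fibroblast growth factors, Fgfr1 being typical of mesenchymal cells and Fgfr2 of epithelia. Fgfr2 had 29, 22, 18, 23, 12 and 15 counts in DMBA3-4 libraries 1 to 6, against 0 in DMSO3-1 libraries 1 to 5 and 1 in library 6. It was thus detected in every DMBA3-4 library and hardly at all in DMSO3-1, though at low depth. Over each group the sums were 119 counts in DMBA3-4 and 1 in DMSO3-1, a ratio of rates of 97.9 (95% exact Clopper-Pearson interval 17.2 to 3899.6, for counting error only). In edgeR the log2 fold change was 5.90 (standard error 0.61, adjusted p = 1.03e-06), a fitted value that depends on the prior count. Without DMSO3-1 library 6, which leaves that group at 0, the fitted value was 7.24. The mean was 5.15 ± 1.90 CPM in DMBA3-4 and 0.0610 ± 0.149 CPM in DMSO3-1 (SD, n = 6 each). The gene model is uncertain. GENCODE M21 places Fgfr2 on chromosome 7 from 130162451 to 133123350, a span that overlaps Ate1, Nsmce4a, Tacc2 and other genes, while RefSeq ends it at 130266808. Which annotation the counting used was not given in the sources used here. Over the 12 libraries, the genes whose pattern was most like that of Fgfr2, by the same measure as for Met, were Rcn3 (0.27), B4galt4 (0.30) and Apol9b (0.30).

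Fgfr1 was the least stable of the 8 calls. It had 637, 621, 615, 583, 695 and 699 CPM in DMBA3-4 libraries 1 to 6, against 687, 1669, 547, 1653, 1373 and 648 CPM in DMSO3-1 libraries 1 to 6. DMBA3-4 libraries were tight, while DMSO3-1 libraries 2, 4 and 5 were at 1373 CPM or more and libraries 1, 3 and 6 were in or below the DMBA3-4 range. On the second principal component of all tested genes, DMSO3-1 libraries 2, 4 and 5 lay at 21.3 to 27.1, library 3 at -5.44, and libraries 1 and 6 at -36.6 and -38.4. The coefficient of variation of Fgfr1 was 7.23% in DMBA3-4 and 48.0% in DMSO3-1. Its log2 fold change was -0.77 (edgeR, SE 0.26, adjusted p = 0.0198). Exact permutation of its log2(CPM + 1) gave p = 0.121, two-sided, and 0.354 after adjustment over all 33387 genes. Without DMSO3-1 library 4 the edgeR value was -0.62 (adjusted p = 0.0508), and without DMSO3-1 libraries 2 to 5 it was -0.11 (adjusted p = 0.485). Fgfr1 lies on chromosome 8 from 25513654 to 25575718.

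**Figure D2:**
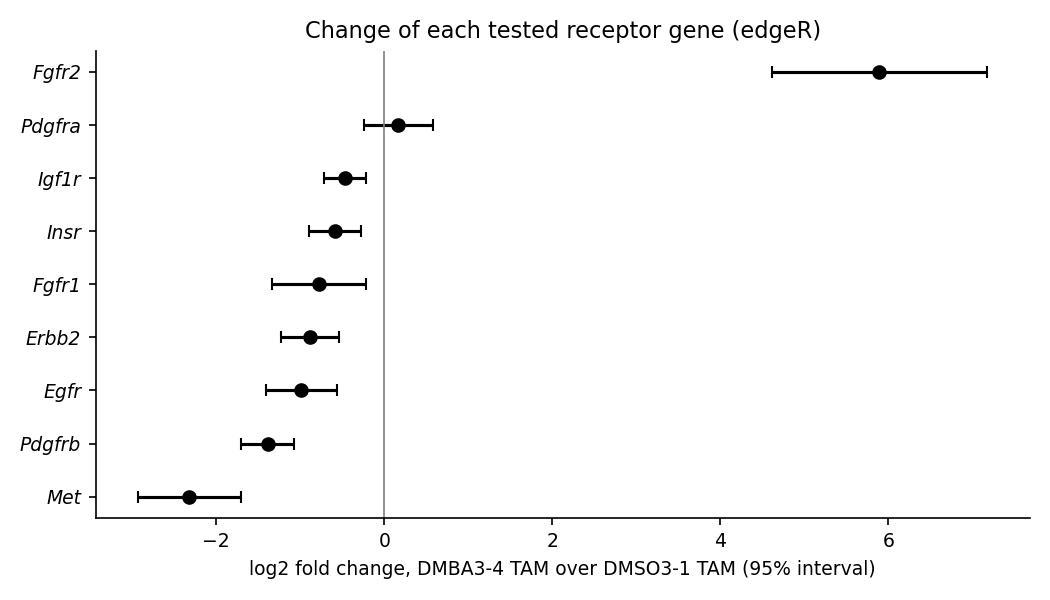
Log2 fold change (x axis, DMBA3-4 TAM over DMSO3-1 TAM) with its 95% interval from edgeR for the 9 tested receptor genes, ordered by value. The intervals of 7 lie below 0, that of Pdgfra spans 0 (-0.25 to 0.58), and Fgfr2 stands at 5.90 with DMSO3-1 counts of 0 in 5 libraries and 1 in the other.

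The order of the receptors by level was taken from CPM per kilobase of exon, since longer genes collect more reads. In DMBA3-4 libraries, Fgfr1 (65.0 CPM per kb) and Pdgfrb (54.7) led, and their ranges overlapped. Then came Igf1r at 7.33, Erbb2 at 6.84 and Pdgfra at 4.74 CPM per kb, each overlapping the next. Insr (2.33), Egfr (2.21) and Met (2.01 CPM per kb) formed a lower level with overlapping ranges, followed by Fgfr2 at 0.498 and Erbb3 at 0.00682 CPM per kb.

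In DMSO3-1 libraries Pdgfrb led at 143 CPM per kb and Fgfr1 followed at 111, again overlapping. Below a gap stood Erbb2 at 12.6, Igf1r at 10.1, Met at 9.99, Egfr at 4.38, Pdgfra at 4.22 and Insr at 3.49 CPM per kb, each overlapping its neighbor. Erbb3 (0.0825) and Fgfr2 (0.00591 CPM per kb) were last, at 0 to 5 counts per library. Met thus stood at rank 8 in DMBA3-4 and rank 5 in DMSO3-1, and Pdgfra at rank 5 in DMBA3-4 and rank 7 in DMSO3-1. With the length of the longest transcript in place of all exons, Fgfr1 led in DMSO3-1 as well (217 CPM per kb, against 145 for Pdgfrb). Pdgfra was then at rank 6 in DMSO3-1, so ranks among genes with overlapping ranges depend on the length used.

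**Figure D3:**
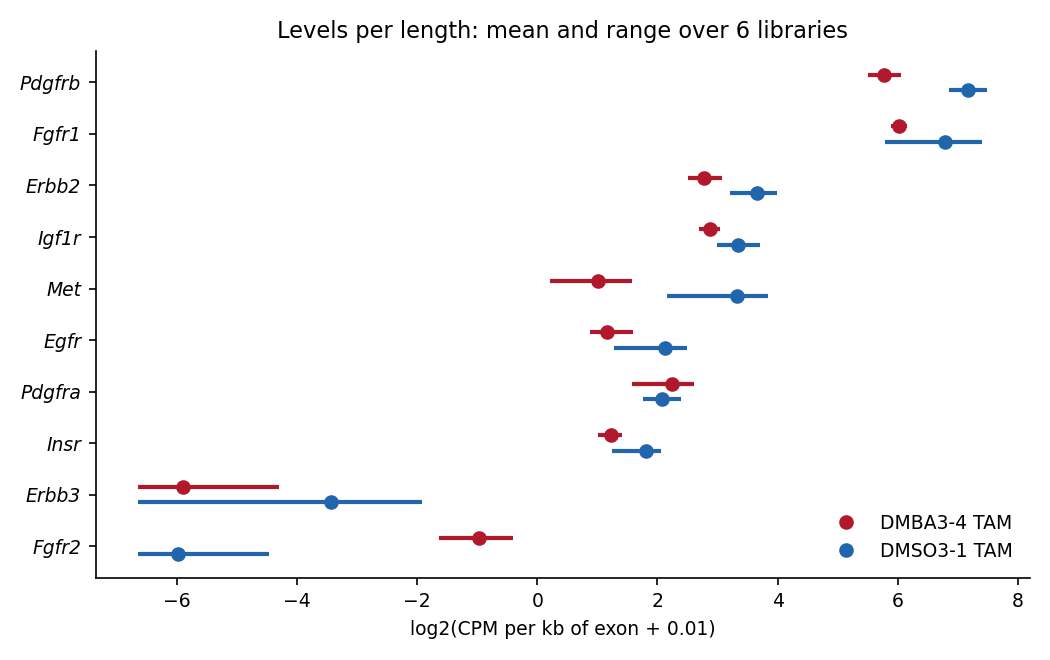
Mean (points) and range over 6 libraries (lines) of each receptor gene's level, as log2 of CPM per kb of exon plus 0.01, with DMBA3-4 above DMSO3-1 for each gene. Pdgfrb and Fgfr1 stand above the other 8 in both groups, and Fgfr2 and Erbb3 are the lowest.

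The authors' comparison table gave another profile of the same genes, in which Csf1r, the macrophage receptor for M-CSF, had a mean normalized count of 12610 and Ptprc 1883. These are the authors' means over their libraries, with no value per library. Insr had the highest mean of the 10 per kilobase of exon (6.23), followed by Fgfr1 (3.55), Pdgfrb (2.96), Erbb3 (2.88), Igf1r (2.69) and Met (2.29). Egfr (0.469), Erbb2 (0.386), Pdgfra (0.281) and Fgfr2 (0.0841 per kb) were lowest. Erbb3, almost absent from the count table, thus had an authors' mean of 17.3, close to the 17.6 of Met and the 16.2 of Pdgfrb. The levels of the 2 tables were normalized separately and were not compared by a test.

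Ligands of these receptors changed in both directions. Of the 11 ErbB ligands, 7 were tested, with 2 higher (Tgfa and Ereg) and 4 lower (Areg, Btc, Epgn and Nrg1), against the 60.1% of all tested genes that changed, and a median log2 fold change of -0.81. Hbegf, the ErbB ligand with the highest mean CPM, was at 490 ± 60.8 CPM in DMBA3-4 and 456 ± 86.0 CPM in DMSO3-1 (SD, n = 6 each), with a log2 fold change of 0.10 (edgeR, adjusted p = 0.492). Among FGF ligands 2 of 17 were tested and both were higher (all tested genes: 29.9% higher, 30.2% lower). Fgf1 had 403 to 751 counts per library in DMBA3-4 and 0 to 4 in DMSO3-1, or 148 ± 28.5 CPM and 0.655 ± 0.483 CPM (SD, n = 6 each; edgeR, adjusted p = 1.50e-11). Fgf2 was at 58.6 ± 13.9 CPM in DMBA3-4 and 12.7 ± 2.06 CPM in DMSO3-1 (SD, n = 6 each), with a log2 fold change of 2.20 (edgeR, adjusted p = 1.06e-07).

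Pdgfa, a ligand of PDGFRα, was at 199 ± 13.5 CPM in DMBA3-4 and 196 ± 11.3 CPM in DMSO3-1 (SD, n = 6 each), with a log2 fold change of 0.02 (edgeR, adjusted p = 0.872). Pdgfc was higher, with 209 ± 33.3 CPM in DMBA3-4 and 70.5 ± 20.7 CPM in DMSO3-1 (SD, n = 6 each), with a log2 fold change of 1.57 (edgeR, adjusted p = 2.74e-06). No ligand of MET, insulin receptor or IGF1 receptor had enough counts to test, and Igf1, the one of the 4 insulin and IGF ligands with the highest mean, had 0 to 3 counts per library in DMBA3-4 and 1 to 5 in DMSO3-1. Of 7 IGF binding proteins, which hold IGFs outside the cell, 2 were tested and 1 was higher (all tested genes: 29.9% higher, 30.2% lower). This was Igfbp7, at a log2 fold change of 2.65 (edgeR, adjusted p = 9.97e-04). Ereg, Fgf2 and Pdgfc were named after their values were seen.

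**Figure D4:**
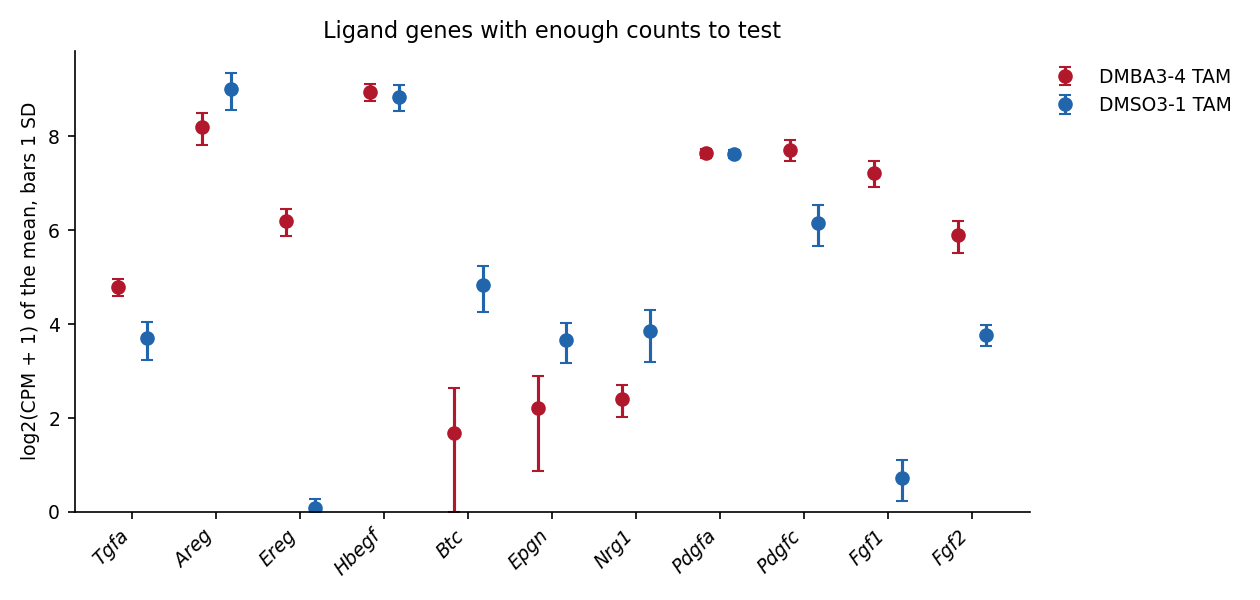
Mean level of each ligand gene with enough counts to test, as log2(CPM + 1), with bars of 1 SD over 6 libraries, DMBA3-4 left of DMSO3-1. Fgf1 and Ereg, at 148 and 72.6 CPM in DMBA3-4, were under 1 CPM in DMSO3-1, while Hbegf and Pdgfa lay at like levels in both groups.

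Other receptor tyrosine kinases and their relatives were mixed. Of 27 such genes 10 were tested, with 4 higher and 5 lower and a median log2 fold change of -0.50 (all tested genes: 29.9% higher, 30.2% lower). Ntrk3, the receptor for neurotrophin-3, had 45 to 142 counts per library in DMBA3-4 and 0 to 7 in DMSO3-1 (log2 fold change 5.13; edgeR, adjusted p = 3.38e-07). Fgfrl1, an FGF receptor relative without a kinase domain, was higher, at a log2 value of 1.70 (edgeR, adjusted p = 4.19e-07). Flt1, a VEGF receptor, and Ddr1, a collagen receptor, were at -2.71 and -1.61 (edgeR, adjusted p = 7.64e-06 and 3.22e-04).

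Coreceptors and sheddases are membrane proteins that present or release ligands, and those that changed were lower. Of 17, 14 were tested, with none higher and 8 lower and a median of -0.62 (all tested genes: 29.9% higher, 30.2% lower). The total that changed, 8 of 14, was near the 60.1% of all tested genes. Itgb4, an integrin that partners MET and ErbB receptors, was at 237 ± 89.9 CPM in DMBA3-4 and 983 ± 187 CPM in DMSO3-1 (SD, n = 6 each), with a log2 fold change of -2.05 (edgeR, adjusted p = 2.81e-06). Cd44, a hyaluronan receptor and MET coreceptor, was at -1.08, the heparan sulfate proteoglycan Sdc1 at -0.97 and the neuropilin Nrp2 at -0.73 (edgeR, adjusted p = 4.82e-07, 8.53e-05 and 9.68e-05). Without DMSO3-1 libraries 2 to 5, 6 of the 14 were lower and none was higher, where 18.4% of all tested genes were lower and 18.5% higher.

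Among adaptors and proximal effectors, 29 of 30 were tested, with 6 higher and 16 lower and a median log2 fold change of -0.44 (all tested genes: 29.9% higher, 30.2% lower). Irs1, the docking protein of the insulin and IGF1 receptors, was at 2.62 ± 1.58 CPM in DMBA3-4 and 22.2 ± 14.2 CPM in DMSO3-1 (SD, n = 6 each), with a log2 fold change of -3.06 (edgeR, adjusted p = 5.78e-05). The kinase Src was at -1.72, the transcription factor Stat3 at -1.17 and the adaptor Sh2b1 at -1.01 (edgeR, adjusted p = 1.05e-04, 1.33e-06 and 2.89e-04). Grb2, the adaptor that links receptors to RAS activation, and the PI3K subunits Pik3ca and Pik3r1 were among the 6 that were higher, at 0.61, 0.81 and 0.77 (edgeR, adjusted p = 0.00561, 0.00110 and 9.28e-04), and were named after their values were seen. Without DMSO3-1 libraries 2 to 5 the list had 4 higher and 8 lower (all tested genes: 18.5% higher, 18.4% lower).

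Of 29 receptor inhibitors and turnover genes 24 were tested, with 4 higher and 14 lower and a median of -0.39 (all tested genes: 29.9% higher, 30.2% lower). Socs3 and Socs5, suppressors of cytokine and receptor signaling, were at -1.85 and -1.57 (edgeR, adjusted p = 9.06e-06 and 2.37e-05). The receptor phosphatases Ptprj and Ptprk were at -1.55 and -1.35 (edgeR, adjusted p = 4.27e-05 and 4.91e-07). Without DMSO3-1 libraries 2 to 5 the list had 2 higher and 12 lower (all tested genes: 18.5% higher, 18.4% lower).

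**Figure D5:**
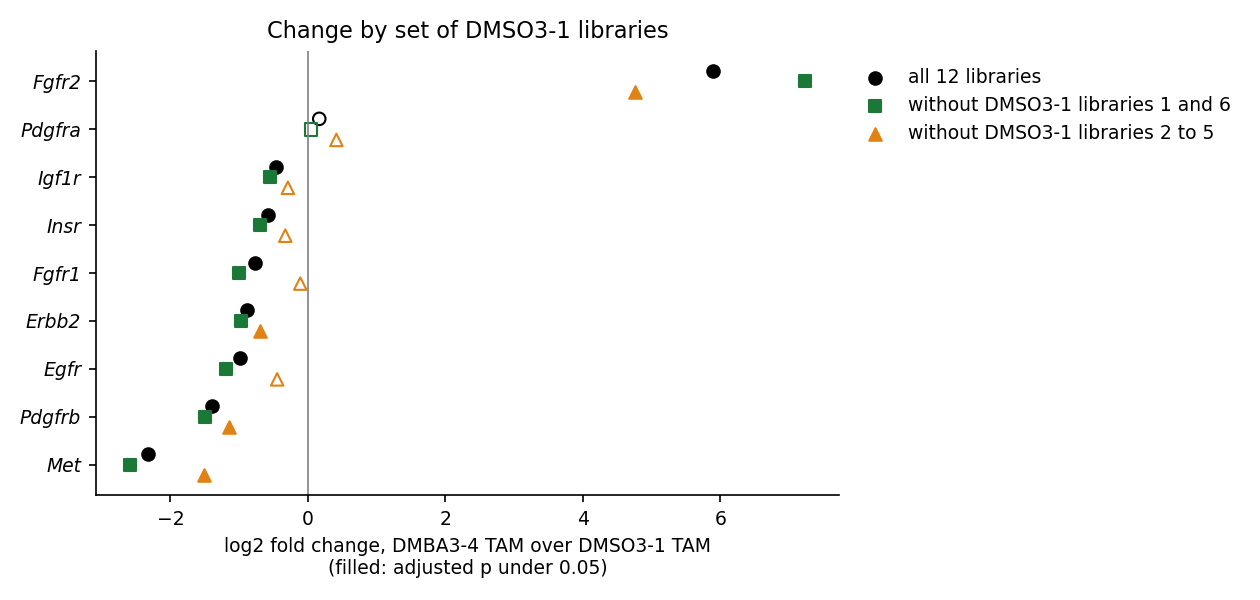
Log2 fold change (x axis, DMBA3-4 TAM over DMSO3-1 TAM) of the 9 tested receptor genes with all 12 libraries, without DMSO3-1 libraries 1 and 6, and without DMSO3-1 libraries 2 to 5, filled where the adjusted p from edgeR was under 0.05. Met, Pdgfrb, Erbb2 and Fgfr2 are filled in all 3 sets, and Egfr, Igf1r, Insr and Fgfr1 are open without libraries 2 to 5.

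The calls of the 8 receptors were then set against the choice of DMSO3-1 libraries. Without libraries 1 and 6, which stood apart from the rest of their group, 8 receptors again changed, 1 higher and 7 lower, against 63.4% of all tested genes in that set (31.9% higher, 31.5% lower), and the median log2 fold change was -0.97. With libraries 1 and 6 as the only DMSO3-1 libraries, 4 of 9 changed, Fgfr2 higher and Met, Pdgfrb and Erbb2 lower, which is near the 36.9% of all tested genes that changed in that set (18.5% higher, 18.4% lower). Pdgfrb was then at -1.15 (edgeR, adjusted p = 3.74e-05) and Erbb2 at -0.69 (edgeR, adjusted p = 0.00684). All 9 tested receptors kept their sign in each of these sets. Without DMBA3-4 library 5 the same numbers changed as with all libraries, 1 higher and 7 lower, against 58.7% of all tested genes (29.3% higher, 29.4% lower).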

How the data were processed

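The authors deposited raw whole-number counts per gene for 12 libraries. According to the submitters' processing notes the build was GRCm38 (mm10). The aligner, the counter and the annotation are not given in the sources used here. Per the labels, the protocol was column purification of total RNA and construction with a SMARTer library kit, whereas the paper's methods describe direct lysis and SmartSeq2. A second deposited table holds the comparison made by the authors, giving per gene the mean of normalized counts (a signal over their libraries), a fold change, its error, a statistic and p-values. Only its means were used. Its libraries carry other names than those of the count table.

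In the count table, 19 entries without a gene name (0.0893% to 0.128% of counts) were left out. Genes were filtered with filterByExpr, scaled by TMM and tested with the robust quasi-likelihood test of edgeR 4.0.16 in R 4.3.3, with Benjamini-Hochberg adjustment over 11511 genes. The biological coefficient of variation was 23.3%. The study's methods name limma, which was an alternative (limma-voom, limma 3.58.1), as were DESeq2 1.42.0, other scalings and filters, a replicate block and leaving out libraries. The exact permutation test used NumPy 2.4.6, and the Clopper-Pearson interval was computed with SciPy 1.17.1. The Clopper-Pearson interval covers counting error only, and the edgeR intervals cover the spread between libraries. The tests were checked on simulated data. Libraries of a group differed by more than sampling noise, with a chi-square per gene of 2.56 or more in every pair.

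Members and lists were chosen with earlier results of these data known. Named were the 10 receptors, the ligand of each list with the highest mean CPM, up to 4 genes of each other pathway list with the largest change (genes past the threshold, without overlap between groups, averaging 10 CPM or more), and 3 genes most like Met and Fgfr2. Coordinates and exon lengths are from GENCODE M21 on GRCm38. Counts of lists by library set and marker shares without their most abundant genes were added after the data were seen.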

Additional observations from a re-analysis of the deposited data

Results flagged for a closer look

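Of 20 receptor and group pairs, 3 had a library far from the other 5 of its group. The rule's chance rate of about 1 in 20 groups is for normally distributed values and does not hold for counts near 0. Erbb3 was at 0.246 CPM (1 count) in DMBA3-4 library 1 and 0 in the others, and at 1.52 CPM (5 counts) in DMSO3-1 library 2. Fgfr2 was at 0.366 CPM (1 count) in DMSO3-1 library 6 and 0 in the others. All 3 rest on 5 counts or fewer, and where the other libraries are at 0 any count is flagged.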

How the results depend on the processing

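Over 224 values of the tested receptors under alternatives, 217 kept direction and call, 7 kept direction but lost the call, and none reversed. The fit without DMBA3-4 library 5 entered these values 2 times, with all its calls kept. Fgfr1 lost its call without a filter on low counts (-0.71, adjusted p = 0.113 from edgeR), without DMSO3-1 library 4 (-0.62) and without DMSO3-1 libraries 2 to 5 (-0.11). In the last of these, Egfr (-0.45), Igf1r (-0.29) and Insr (-0.33) lost theirs, and 4605 genes and 4 receptors changed, against 6918 and 8. No pairing of the libraries by replicate number was seen. Same-numbered libraries correlated at -0.158 to 0.129, and 0 of 6 correlated best with their own number. These correlations cannot exclude a weak pairing. With the replicate block, 6481 genes and 7 receptors changed, and Fgfr1 was at -0.62 (adjusted p = 0.0510 from edgeR). Leaving out each library in turn gave 6490 to 7139 genes and 7 to 8 receptors. Under upper quartile scaling 3763 genes were higher and 3116 lower. Fgfr2 had too few counts for the stricter filter, where 7 receptors changed, and 7 did without a filter. With the longest transcript, 3 of 10 receptors kept their rank by level in DMSO3-1. Erbb3 differed by -0.47 with a pseudocount of 1 and -0.76 with 0.5 (exact permutation, adjusted p = 0.0697 and 0.0696). Depth limits Erbb3 and Fgfr2, at 29 counts per library or fewer.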
